A study of Homo sapiens with 16 samples.

Results

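B cells were a small cluster of the tumor microenvironment in these mouse mammary tumors. The members are the cells that the authors' deposited annotation names B.cells in any of 16 single-cell RNA libraries, 391 of 53946 deposited cells. Where a 16-base cell barcode occurred in several libraries of the long-term experiment, the copy with most transcripts was kept, which left 389 B cells of 48824 cells. The authors' clustering used the genes described here, so each comparison of the B cells with other clusters is a description and carries no test.

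The tumors were murine-derived syngeneic transplants (MDST) of LPA1-T22 (T22) or LPA1-T127 (T127), which came from mice whose mammary epithelium carries a transgene for LPA1, a receptor for lysophosphatidic acid. Chunks of 25 mm3 were placed in the mammary fat pads of female FVB mice, which were 6 weeks old at purchase and kept their own immune cells. Mice received vehicle or olaparib, an inhibitor of the DNA repair enzyme PARP, by mouth at 50 mg/kg daily. The short-term T22 and T127 experiments (4 and 8 days of treatment) gave 4 libraries each, and the long-term experiment (20 days, with T22 and T127 transplanted alone or together in opposite fat pads) gave 8 libraries. Each library, called a pool here, was a mixed capture of dissociated tumors with and without olaparib after removal of dead cells and with no sort for B cells. Olaparib and vehicle, and in the long-term experiment T22 and T127 hosts, cannot be told apart within a pool from the tables used here. Each experiment was therefore counted as 1 sample, no p-value is given, and intervals are exact 95% counting intervals that cover counting error only.

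B lymphocytes bind antigen through a surface immunoglobulin whose signal is carried by the CD79A and CD79B chains. Naive follicular B cells carry IgM and IgD and recirculate through lymphoid tissue under the control of chemokine and lipid receptors. After antigen contact and T cell help they may enter the germinal centre, where the immunoglobulin genes are mutated and the isotype is switched, and some then become plasma cells that secrete antibody.

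The pools held 34755906 to 55600377 unique molecular identifiers (UMIs, the transcripts counted), and B cells were compared with 32920 other immune cells in 14 deposited clusters. B cells were shallow. Their median was 2862.5 UMIs per cell in the T22, 2084.5 in the T127 and 2082 in the long-term experiment, against 6784.5, 8938 and 8227.5 in the other immune cells. All B cells together gave 213390, 118422 and 789601 UMIs. In the long-term experiment 219 of 309 B cells (70.9%) had fewer than 1000 genes detected, and 5 of the deposited B cells carried a barcode that another pool also held, of which 2 were left out. Levels are given in CPM, the counts scaled to 1000000 UMIs of the group, and a fold against another group is the ratio of CPM. This scale compares a gene between groups of cells and not the amount of RNA per cell.

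B cells were a smaller share of immune cells in the T22 than in the T127 short-term experiment. In the 4 T22 pools the shares were 0.318, 0.328, 0.402 and 0.156% of immune cells, from 10, 10, 13 and 5 B cells. In the 4 T127 pools they were 1.88, 1.19, 1.16 and 1.54%, from 14, 8, 9 and 11 B cells. Every T127 pool lay above every T22 pool, although each group is 1 experiment and the interval of T127 pool 3 reached down to 0.530% while that of T22 pool 3 reached up to 0.686%. Over all pools the share was 0.301% in T22 (0.213 to 0.413) and 1.44% in T127 (1.04 to 1.95). Lymphocytes of the T, NK and B clusters were 4736 of 12632 immune cells in T22 and 572 of 2908 in T127, and B cells were 0.802 and 7.34% of them. Of all cells they were 0.252 and 0.525%.

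In the long-term experiment 309 B cells made up 1.74% of immune cells (1.55 to 1.94). Among cells with at least 1000 genes the share was 0.587% there, 0.321% in T22 and 0.948% in T127. Pools 1 to 4 held 0.509, 0.512, 1.22 and 0.237%, and pools 5 to 8 held 2.72, 2.42, 3.41 and 2.18%. The values of these sets of pools did not overlap, although the interval of pool 3 reached up to 1.80% and that of pool 8 down to 1.64%. The sets were formed after the values were seen and match no label of the pools. Lymphocytes of the T, NK and B clusters together were 151 to 218 of 1954 to 2111 immune cells in pools 1 to 4. In pools 5 to 8 they were 328 to 396 of 2314 to 2559, and T and NK cells were also a larger share there. B cells were 3.01 to 11.5% of lymphocytes in pools 1 to 4 and 15.2 to 20.8% in pools 5 to 8. Haemoglobin transcripts differed between the same pools. Hbb-bs, the adult beta globin of red cells, stood at 929 to 1082 CPM in the other immune cells of pools 1 to 4 and at 2717 to 3636 CPM in pools 5 to 8. In B cells Hbb-bs was 7230.2 CPM over the long-term pools (2239.9 to 9977 by pool), 42.2 CPM in T127 and at 0 UMIs in T22. The part of free or blood-borne RNA in the B cell shares was not tested.

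**Figure D1:**
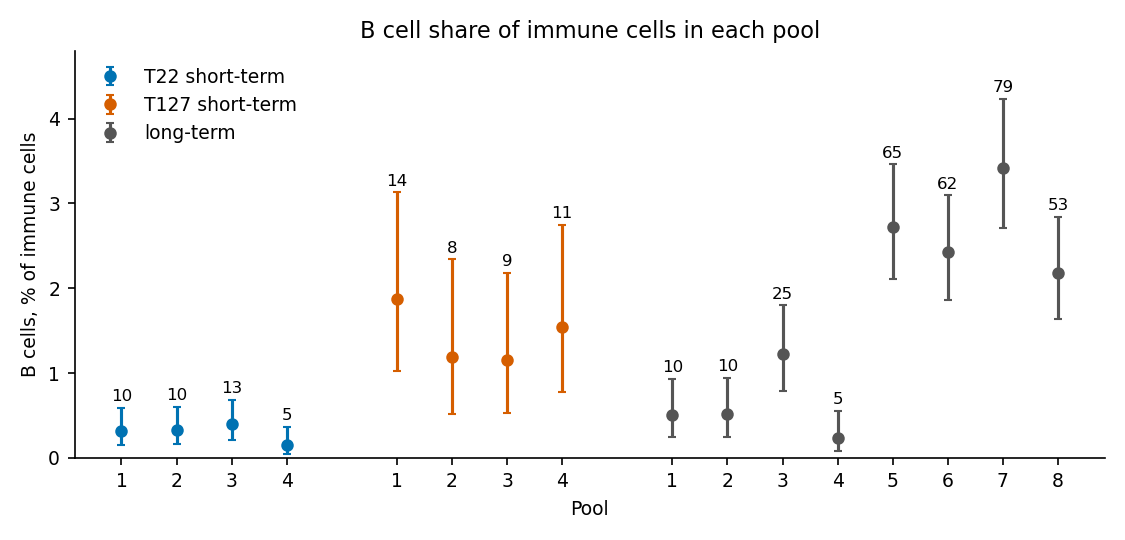
B cells as a percentage of immune cells (y axis) in each of the 16 pools (x axis), grouped by experiment, with exact 95% binomial intervals as bars and the number of B cells above each point. The T22 pools sit between 0.156 and 0.402%, the T127 pools between 1.16 and 1.88%, and long-term pools 5 to 8 between 2.18 and 3.41%.

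The label was checked against Cd79a and Cd79b, the signalling chains of the B cell receptor, and Ms4a1, which encodes CD20. Cd79a stood at 736, 381, 971 and 1113 CPM in the B cells of the 4 T22 pools and at 1091, 375, 2147 and 1707 CPM in those of the 4 T127 pools. Its lowest, median and highest values over the 8 long-term pools were 1097, 1936 and 3492 CPM. Every pool lay far above the 0.145, 0.0334 and 1.51 CPM of the other immune cells in the 3 experiments. Ms4a1 stood at 726, 1089 and 1631 CPM in B cells of the T22, T127 and long-term experiments and at 1.38 CPM in the long-term other immune cells. Cd79b stood at 731, 920.4 and 1968 CPM against 13.3, 13.7 and 11.1 CPM.

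The difference from other cells was also present at equal depth. With each cell thinned to 1500 UMIs, which left 272 long-term B cells, Cd79a had a UMI in 89.3% of B cells, 0.0846% of M2 macrophages and 0.686% of central memory CD4 T cells. Ms4a1 and Cd79b had a UMI in 91.5 and 91.2% of the thinned B cells.

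Most, but not all, of the cells named B.cells carried these genes. UMIs of at least 2 of the 3 genes were present in 371 of 389 cells, namely 32 of 38 in T22, 38 of 42 in T127 and 301 of 309 in the long-term experiment. The remaining 6, 4 and 8 cells were few, but some were deep. They held 51.8% of all B cell UMIs in T22, 30.8% in T127 and 2.44% in the long-term experiment. The 6 such T22 cells lay in pools 1 and 2 and had 8554 to 26509 UMIs each. Genes of other cell types were abundant in several of these cells. A T22 cell of pool 1 held 95 UMIs of Gzma, a protease of cytotoxic lymphocytes, and 41 of Krt8, an epithelial keratin. A T127 cell of pool 2, with 32518 UMIs, held none of the 3 genes and 355 UMIs of the list of malignant cell genes. Some shallow cells also held genes of other types. A T127 cell of pool 4, with 1086 UMIs, held 30 UMIs of the pDC list, long-term cells of pools 5 and 1 held 12 and 11 UMIs of T cell genes, and long-term cells of pools 2 and 8 held 192 and 60 UMIs of Cst3, a cystatin gene abundant in myeloid cells. Cst3 was chosen after its values were seen. All 5 of these shallow cells had 0 UMIs of the 3 genes and of Ebf1, a B lineage factor. The data go against the label for them and for the deep short-term cells, whereas 4 shallow cells of the T127 and long-term experiments with fewer than 2 of the genes held 2 to 10 UMIs of Ebf1. Short-term values are therefore also given for the 32 and 38 cells with at least 2 of the 3 genes, called marker-positive below, which is a choice made after seeing the data. Outside the B cell cluster at least 2 of the 3 genes were seen in 3 of 12594 T22, 0 of 2866 T127 and 45 of 17460 long-term immune cells (0.258%).

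**Figure D2:**
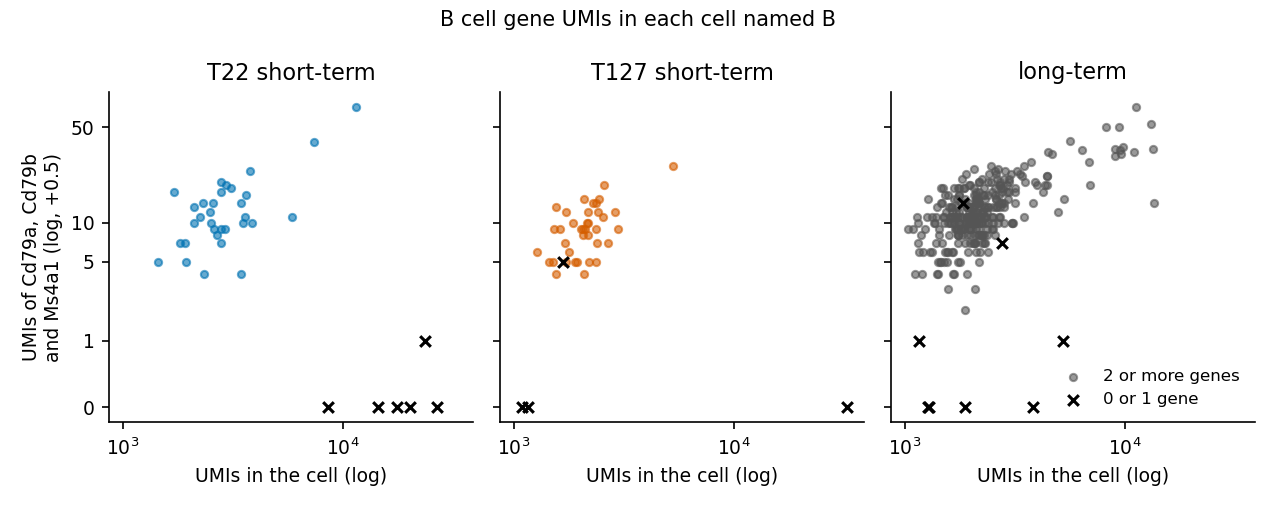
Summed UMIs of Cd79a, Cd79b and Ms4a1 plus 0.5 (y axis, log scale) against all UMIs (x axis, log scale) for each B cell, 1 panel per experiment, with crosses for cells that hold 0 or 1 of the 3 genes. Crosses are 6 of 38 cells in T22, where 5 of them are the deepest cells, 4 of 42 in T127 and 8 of 309 in the long-term experiment.

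A gene was called higher or lower in B cells when it differed from the other immune cells by at least 4-fold on the scale of CPM plus 1, among genes with at least 50 UMIs in both groups together. The background of such calls was 2.8% of 13269 long-term genes higher and 9.06% lower in B cells, with 3.32 and 11.2% in T22 and 4.4 and 23.3% in T127. Among marker-positive cells alone, 4.53% of genes were called higher and 22.7% lower in T22, and 5.37 and 31.3% in T127. The lower calls of the short-term experiments rest on few B cell UMIs. The median log2 difference over all measured genes was -0.08 in the long-term experiment and -0.65 and -0.64 in the marker-positive T22 and T127 cells. Because clusters were formed from the same counts, nothing is read from the counts of listed genes beyond their size.

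Most genes of the receptor and its coreceptors stood far above their level in the other immune cells. Of 7 genes 6 were measured in the long-term experiment, and Cd79a, Cd79b, Ms4a1 and Cd22 were called higher (median log2 5.51). In the short-term experiments the same 4 of 6 measured genes were called higher over all B cells, with medians of 4.71 in T22 and 5.37 in T127, and the marker-positive cells are not counted here because 3 of the 4 genes chose them. Cd22, an inhibitory lectin of the receptor, was at 128 CPM in B cells and 9.07 CPM in the other immune cells. Cd81, a tetraspanin that many cells make, was at 389 CPM against 677 CPM. Cr2, the complement receptor CD21, gave 28 UMIs in long-term B cells (35.5 CPM).

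Of 13 signalling genes downstream of the receptor, Blk, Bank1 and Cd37 were called higher in long-term B cells and the median log2 was 0.74. Bank1, an adaptor of receptor signalling, was at 347 CPM in B cells and 3.27 CPM in the other immune cells, a ratio of 106 (91.2 to 123). Cd37, a tetraspanin of mature B cells, was at 982 CPM against 60.0. The kinases that myeloid cells share were nearer to the other clusters. Syk was at 155 against 51.3 CPM, and Lyn at 201 against 247 CPM. Blk, a B cell Src-family kinase, was at 72.2 CPM in B cells and 187 CPM in gamma delta T cells.

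With counts summed over cells, most listed transcription factors of B cell identity stood above the other immune cells in the long-term experiment. Of 12 listed factors 8 were called higher in the long-term experiment (Pax5, Ebf1, Spib, Pou2af1, Bcl11a, Bach2, Foxo1 and Ikzf3), with a median log2 of 3.96. Over all B cells 6 of 12 were called higher in T22 and 7 of 12 in T127, with medians of 2.40 and 2.42. In marker-positive cells these were 8 of 12 and 9 of 12, with medians of 3.09 and 2.95. Ebf1, which opens the B lineage programme, stood at 635, 647, 1688 and 2543 CPM in the T22 pools and at 1819, 563, 1551 and 1707 CPM in the T127 pools. Its long-term pools ran from 1744 to 3362 CPM with a median of 1984, against 3.10 CPM in the other immune cells. Pax5, the factor that keeps the B cell fate, was at 209 CPM (178 to 243) against 0.125 CPM, and its marker-positive levels were 729 CPM in T22 and 952 CPM in T127. Pou2af1, a coactivator of octamer promoters, was at 193 against 0.296 CPM. Several of these factors were not the property of B cells alone. Plasmacytoid dendritic cells (pDC) held more Spib (219 against 103 CPM), more Bcl11a (295 against 179.8 CPM) and more Irf8 (2746 against 303 CPM). Spi1, which encodes the myeloid and B cell factor PU.1, was at 161 CPM in B cells and 549 CPM in the other immune cells.

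**Figure D3:**
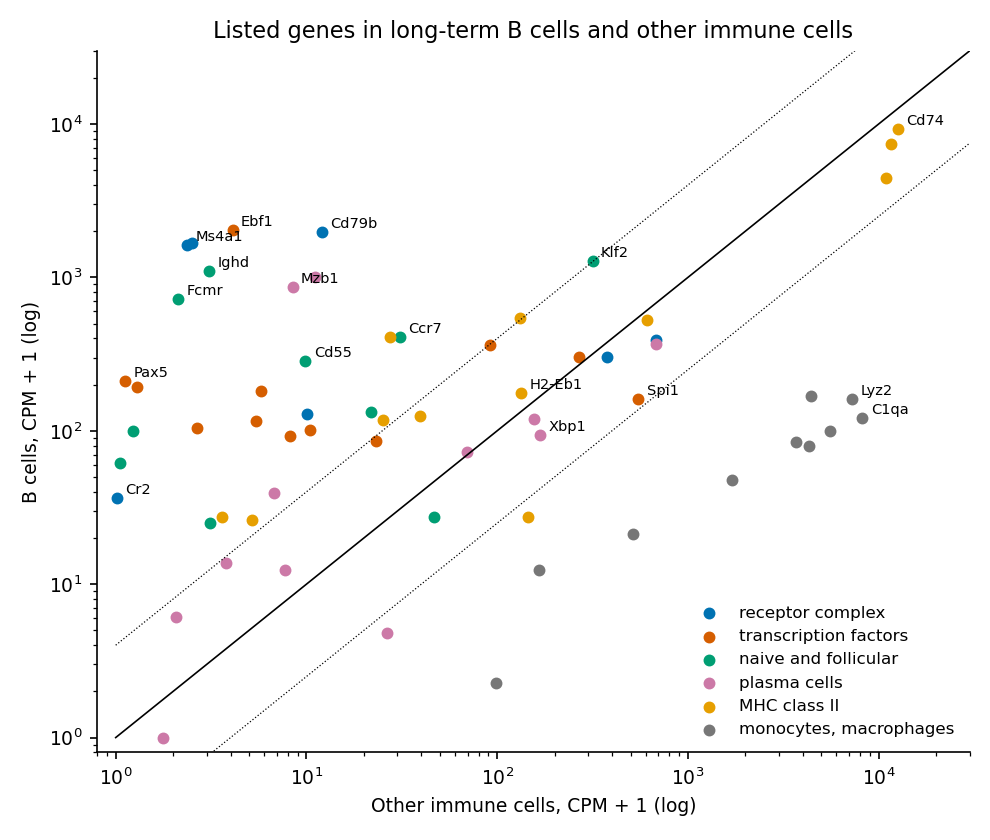
Level of each gene of 6 lists in long-term B cells (y axis, CPM plus 1, log scale) against the other long-term immune cells (x axis, CPM plus 1, log scale), coloured by gene list, with a solid line at equal levels and dotted lines at 4-fold. Ms4a1, Ebf1, Pax5, Ighd and Fcmr lie far above the upper line, and the genes of monocytes and macrophages lie below the lower one.

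The leading genes were ranked by the ratio of long-term B cells to the highest other immune cluster. They were a mixture of B cell identity genes, the product of a single cell and a gene of a small set of cells. Ighv3-6 and Igkv1-117, immunoglobulin variable genes, stood highest with ratios of 5044 and 724, and nearly all of their UMIs lay in 1 cell described below. Then came Pax5 (261), Ighd (168), Fcmr (166), Rgs13 (125), Cd79a (109), Ms4a1 (107), Gm31243 (85.6), Ebf1 (84.2), Bank1 (52.7) and Pou2af1 (44.0). Fcmr encodes the Fc receptor for IgM and Rgs13 a regulator of G protein signalling of germinal centre B cells. Of the 143 Rgs13 UMIs, 135 lay in 14 cells with germinal centre genes described below. Tnfrsf13c, the receptor for the survival factor BAFF, had a ratio of 18.5, and Scd1, a stearoyl-CoA desaturase, had 12.0. The others of the leading 20 were Cd79b, Cd22, Rasgrp3, Vpreb3, Ralgps2 and Pxk.

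The B cells mainly carried IgM and IgD transcripts. Of all heavy chain constant UMIs, Ighm and Ighd made up 97.8% in T22 B cells (96.2 to 98.9) and 99.1% in T127 B cells (97.8 to 99.8). By pool the T22 values were 94.96, 100, 98.8 and 97.6%, and the T127 values 100, 98.7, 97.6 and 99.2%. Ighm had a UMI in 35 of 38 and 40 of 42 cells, and Ighd in 31 and 34. Switched isotypes gave 11 UMIs in T22 and 4 in T127, with 0 of Ighg1 in both.

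In the long-term experiment the same share was 37.7% (36.4 to 38.9), and 1 cell set it. Without the cell of most Ighg1 UMIs it was 92.1% (90.9 to 93.1). By pool it was 99.1, 100, 89.4, 100, 94.9, 11.1, 87.5 and 92.7%, with that cell in pool 6. Both Ighm and Ighd had a UMI in 244 of 309 cells, a switched isotype had one in 52, and 13 of those 52 held neither Ighm nor Ighd. Ighd was the more specific of the IgM and IgD genes. It stood at 1101 CPM (1029 to 1176) in B cells and 2.09 CPM in the other immune cells, and had a UMI in 74.6% of thinned B cells against 0.339% of thinned M2 macrophages. Ighm was at 1833 CPM, but pDC held 1179 CPM, and 13.3% of thinned M2 macrophages had a UMI against 87.5% of B cells.

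The light chains could not be read as kappa or lambda use. Igkc, the single kappa constant gene, gave 4 UMIs in all B cells and 6 in all 48824 cells. Kappa variable genes nevertheless gave 291 UMIs in 111 B cells. The lambda constant genes Iglc2, Iglc3 and Iglc1 stood at 1460.2, 995 and 262 CPM in long-term B cells. Of the variable genes 61 of 185 heavy chain, 54 of 160 kappa and 2 of 3 lambda genes were seen. The 10 most abundant were Iglv1, Igkv1-117, Ighv3-6, Ighv3-1, Iglv3, Ighv5-17, Ighv8-11, Ighv3-2, Ighv8-8 and Igkv12-46. Iglv1 gave 512 UMIs, 501 of them in 1 cell, Igkv1-117 gave 132 of 142 and Ighv3-6 gave 117 of 118 in 1 cell. Iglv3 was spread over 27 cells with 41 UMIs in all.

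Nearly all measured genes of naive and follicular B cells were higher in B cells than in the other immune cells. Of 11 listed genes 10 were measured in the long-term experiment and 9 were called higher (Ighd, Fcer2a, Fcmr, Ccr7, Cxcr5, Klf2, S1pr1, Btla and Cd55), with a median log2 of 4.29. Over all B cells 7 of 9 were called higher in T22 and 8 of 9 in T127, with medians of 3.85 and 5.33. In marker-positive cells 8 of 9 were called higher in each short-term experiment, with medians of 4.15 in T22 and 5.84 in T127. The genes summed to 1701, 2247, 5551 and 7471 CPM in the 4 T22 pools and to 6878, 3251, 8947 and 8195 CPM in the 4 T127 pools. The low T22 pools 1 and 2 and the low T127 pool 2 were those with the deep cells that lack B cell genes. In marker-positive cells the sum was 5543 CPM in T22 and 7917 CPM in T127, against 309 and 480.1 CPM in the other immune cells. In the long-term experiment it was 4162 CPM (3728 to 6567 by pool) against 426 CPM. The highest other cluster was central memory CD4 T cells in the long-term experiment (1266 CPM) and in T127 (1869 CPM). In T22 it was the CD14-PF4 myeloid cells (873 CPM).

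Ighd stood at 292, 228, 1133 and 1033 CPM in the T22 pools, at 1289.7, 583, 1074 and 939 CPM in the T127 pools and at 388, 1068 and 1324 CPM as lowest, median and highest of the long-term pools. Fcmr was at 721 CPM in long-term B cells, a ratio of 644 (542 to 769) to the other immune cells, and at 613 and 683 CPM in marker-positive T22 and T127 cells. Fcer2a, the low-affinity IgE receptor CD23 of follicular B cells, was lower at 60.8 CPM. The recirculation genes differed in how far other immune cells shared them. Cxcr5, the receptor that guides B cells into follicles, was at 98.8 CPM, a ratio of 417 (277 to 637) to the other immune cells. Ccr7, the receptor for the T cell zone, was at 409 CPM, a ratio of 13.6 (12.1 to 15.3). Klf2, a factor of quiescence and recirculation, was at 1269 CPM, a ratio of 4.03 (3.78 to 4.29). S1pr1, the receptor for exit from lymphoid tissue, was at 132 CPM, a ratio of 6.34 (5.16 to 7.71). These ratios are to all other immune cells together, T cells and myeloid cells alike. Ccr7, Klf2 and S1pr1 were not among the 20 leading genes by ratio to the highest other cluster. The last of those 20, Pxk, had a ratio of 7.70.

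For Ccr7, S1pr1, Cxcr5 and Cd55 the marker-positive cells of both short-term experiments stood above the long-term cells with no overlap of counting intervals, and for Ighd and Fcmr this was not so. Ccr7 was at 797 and 1281 CPM in T22 and T127 against 413 CPM in the long-term marker-positive cells. S1pr1 was at 477 and 695 against 134 CPM. Klf2 was at 1177 CPM in T22 and 2440 CPM in T127 marker-positive cells. The long-term cells include a small set with germinal centre genes, described below, that was low in these genes. In the 294 long-term cells without that set and the cell of most Ighg1 UMIs, Ccr7, S1pr1 and Klf2 were at 486, 158 and 1492 CPM. The experiments differ in hosts, treatment time and capture, which cannot be told apart, and the long-term B cells were richer in globin transcripts. Il4ra, the interleukin 4 receptor chain, was the measured gene not called in the long-term experiment, at 26.6 CPM against 45.6 CPM.

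**Figure D4:**
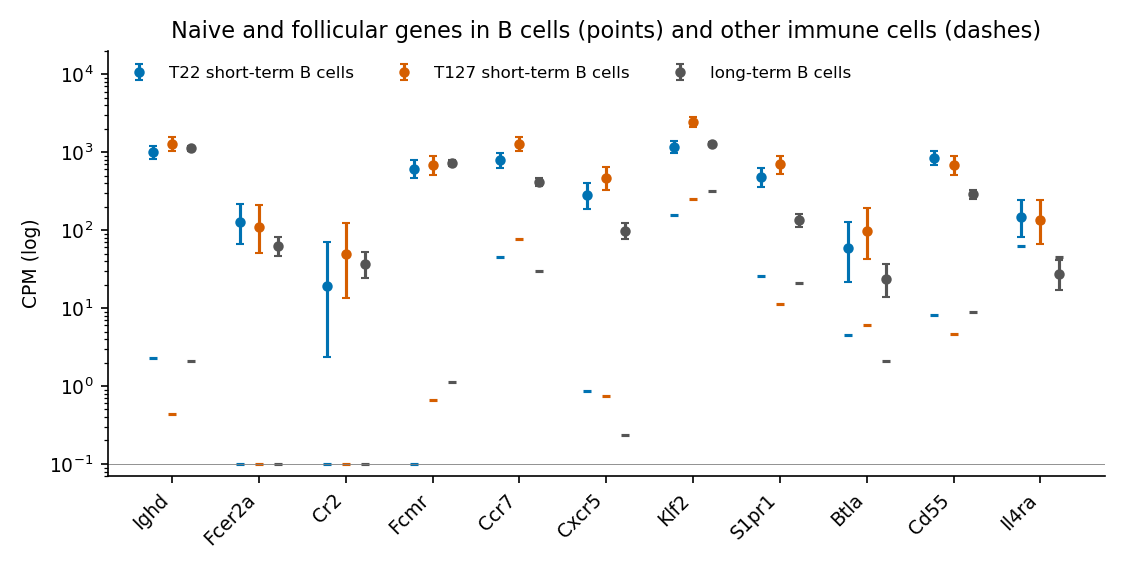
Levels of the naive and follicular genes (x axis) in marker-positive B cells of the 3 experiments (y axis, CPM, log scale), as points with exact 95% Poisson intervals and with dashes for the other immune cells of the same experiment. Values under 0.1 CPM are drawn at 0.1. Ighd, Fcer2a, Fcmr and Cxcr5 lie far above their dashes, and Il4ra in the long-term experiment lies below its dash.

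A plasma cell programme was not a feature of the cluster as a whole. Of 12 listed genes all were measured in the long-term experiment, of which Jchain, Irf4 and Mzb1 were called higher and Prdm1 lower, with a median log2 of 0.38. The genes summed to 1045 CPM in T22 and 1233 CPM in T127 B cells, beside 866 and 996 CPM in the other immune cells and 2191 and 2643 CPM in pDC. In the long-term experiment the sum was 2589.9 CPM, with 6156 CPM in pool 6 and 1055 to 2265 CPM in the other 7 pools (1624 CPM over all pools but pool 6). The other immune cells held 1129 CPM and pDC 3419 CPM. Without 1 cell rich in Ighg1 and Jchain in each cluster, B cells held 1560 CPM and pDC 2682 CPM. UMIs of at least 3 of the genes were found in 68 of 309 long-term B cells (22.01%, 17.5 to 27.0), in 9.93% of them after thinning, beside 2 of 37 thinned T22 (5.41%) and 7 of 38 thinned T127 B cells (18.4%, 7.74 to 34.3), and in 5.16% of thinned M2 macrophages and 46.4% of thinned pDC. Mzb1, a chaperone of immunoglobulin assembly made by several B cell subsets and pDC, was the gene most widely seen, at 866 CPM in B cells (226 of 309 cells) and 890.2 CPM in pDC, or 597 CPM without 1 pDC rich in Ighg1 and Jchain. Xbp1, the secretory stress factor, was at 92.5 against 166 CPM, and at 50.3 CPM in B cells without 1 cell that held 34 of its 73 UMIs, and Prdm1, the master factor of plasma cells, gave 3 UMIs. Tnfrsf17, the plasma cell receptor BCMA, gave 0 UMIs in long-term B cells.

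A single cell of long-term pool 6 carried most of the Ighg1 and Jchain transcripts of the long-term B cells. It held 13554 UMIs, of which 33.4% were immunoglobulin, with 3635 Ighg1 UMIs (95.8% of those in all long-term B cells) and 663 of Jchain (83.8%), the joining chain of polymeric antibody. It had UMIs of 10 plasma cell genes, 6 of Cd79a and 0 of Ms4a1. The next highest B cells held 38 Ighg1 and 32 Jchain UMIs. Slpi, a secreted protease inhibitor noticed after its values were seen, gave 2244 UMIs in the same cell. Jchain had 0 UMIs in the short-term B cells, where 3 UMIs would correspond to 14.1 CPM in T22 and 25.3 CPM in T127.

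A small set of long-term B cells carried germinal centre genes. Of 9 listed genes 8 were measured and Mef2b, Rgs13, Gcsam and Eaf2 were called higher (median log2 2.59). In marker-positive cells 0 of 6 measured genes were called higher in T22 and 0 of 5 in T127. Over all B cells these were 1 of 6, Fas, in T22 and 0 of 5 in T127. The list summed to 693 CPM in long-term B cells, 580 CPM in the other immune cells and 707 CPM in M1 macrophages. At least 3 of its genes had a UMI in 17 of 309 long-term, 2 of 38 T22 and 1 of 42 T127 B cells. Among long-term CD14-IL1B myeloid cells this was 44 of 446 (9.87%). After thinning it was 11 of 272 long-term B cells and 0 of the 446 CD14-IL1B cells. Mef2b encodes a germinal centre transcription factor and Nuggc a GTPase of germinal centre B cells. At least 2 of Mef2b, Rgs13 and Nuggc, a set chosen after the values were seen, had a UMI in 14 of 309 long-term B cells (4.53%, 2.50 to 7.49), and all 3 did in 8 cells. By pool these were 0, 0, 2, 0, 1, 1, 6 and 4 cells. Among the other long-term immune cells 3 of 17460 passed (0.0172%). None of 38 T22 or 42 T127 B cells did, at the shallow depth of those cells. The limit of 3 counts would be 7.89 and 7.14% of cells, and the exact upper limits were 9.25 and 8.41%. In the 32 and 38 marker-positive cells the exact upper limits were 10.9 and 9.25%.

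These 14 cells were deeper than the other 294 long-term B cells (the cell of most Ighg1 UMIs left out), with a median of 9189.5 UMIs (2916 to 13355) against 2066 (1033 to 11209). After thinning 5 of 272 B cells and 0 of 16672 other immune cells still passed. All 14 held at least 2 of the 3 B cell genes. Their Ms4a1 level was 1398 CPM against 1706 CPM, Pax5 was 213 against 213 CPM, and Cd79a was 904 against 1838 CPM.

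Because 3 germinal centre genes chose these cells, their differences from the other B cells are given as a description. Most of the 14 cells carried proliferation genes that most B cells lacked, with a UMI of the cell cycle list in 12 of 14 against 53 of 294 cells. The cell cycle list summed to 4117 CPM against 111 CPM, and 10 of 14 cells against 1 of 294 held at least 10 of its UMIs. Mki67, the proliferation antigen, was at 955 against 24.3 CPM, a ratio of 39.3 (23.2 to 71.1). Top2a, the topoisomerase of dividing cells, was at 1099.7 against 21.3 CPM. Over all long-term B cells no gene of the cell cycle list was called in either direction, with a median log2 of -0.02. Further listed genes were higher in the same cells. Basp1 was at 1645 against 25.8 CPM, Eaf2 at 222 against 4.55 and the death receptor gene Fas at 111 against 9.11 CPM.

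Isotype and recirculation genes differed in the same cells. Neither Ighm nor Ighd had a UMI in 10 of 14 cells against 11 of 294, and a switched isotype had one in 13 against 38. Ighd, Gpr183 and S1pr1 had no UMI in the 14 cells (3 UMIs would be 25.6 CPM). In the other 294 cells Ighd was at 1319, S1pr1 at 158 and Gpr183, the oxysterol receptor that positions B cells at the follicle edge, at 653 CPM. Ighg1 was at 1185 against 30.4 CPM and Jchain at 1023 against 12.1 CPM. The naive and follicular list summed to 520.0 against 4896 CPM. Ccr7 was at 25.6 against 486 and Klf2 at 162 against 1492 CPM. Bcl2, the survival gene, was at 8.52 against 109 CPM. Mzb1 was shared by both sets at 1185 and 762 CPM. Globin was lower in the 14 cells, with Hbb-bs at 3094 against 8061 CPM. Of 6 fibroblast genes the collagen genes Col1a1 and Col1a2 were higher, at 128 against 27.3 and 222 against 44.0 CPM, each from 4 of the 14 cells. The intervals of the ratio included 1 for the other 4 (Col3a1 at 1.58, Dcn at 1.43, Sparc at 0.936 and Acta2 at 0.225, the last from 1 UMI). No doublet caller was run, and the part of doublets in these cells was not tested.

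**Figure D5:**
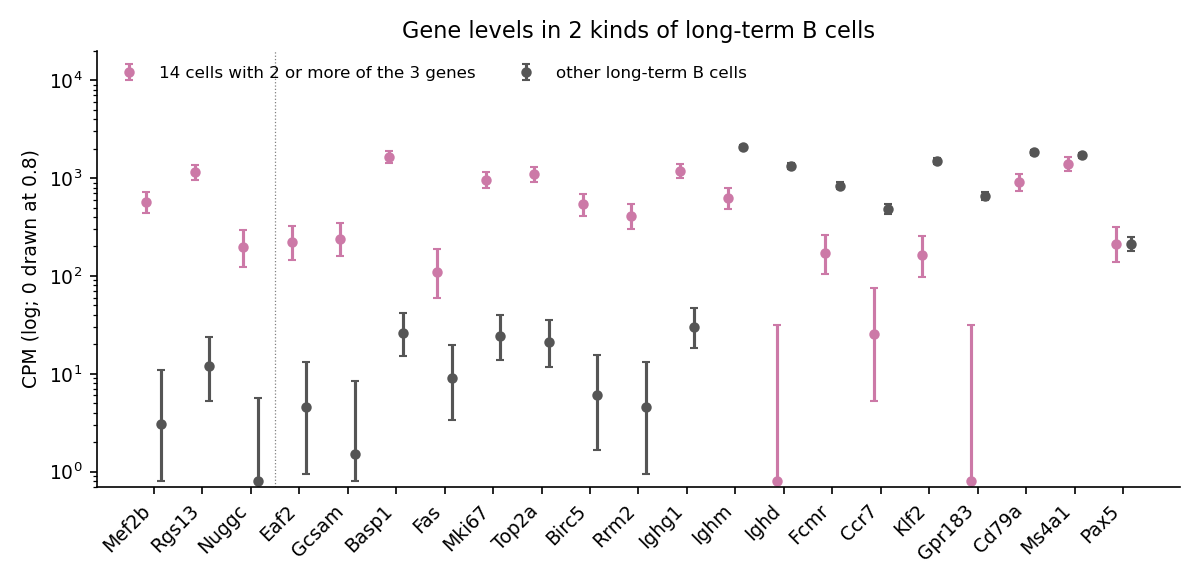
Gene levels (CPM, log scale) in the 14 long-term B cells with at least 2 of Mef2b, Rgs13 and Nuggc and in the other 294 long-term B cells, by gene (x axis), with exact 95% Poisson intervals as bars, values at or near 0 drawn at 0.8 and a dotted line that sets apart the 3 genes that chose the cells. Mki67, Top2a, Basp1 and Ighg1 are higher in the 14 cells, and Ighd, Klf2, Ccr7 and Gpr183 are lower.

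Genes of other B cell subsets were mixed. Of 12 marginal zone and B1 genes, Dtx1 and Mzb1 were called higher in long-term B cells and Cd9 and Myof lower, with a median log2 of -0.91. The list summed to 1014 against 381 CPM, of which Mzb1 gave 866 CPM. Of 9 genes of atypical and age-associated B cells 8 were measured, 1 was called higher (Pdcd1lg2, which encodes PD-L2) and 5 lower, with a median log2 of -2.40 and a sum of 93.7 against 436 CPM. Of 9 precursor and transitional genes 6 were measured, Vpreb3 and Cd24a were called higher and Cd93 and Il7r lower, with a median log2 of -0.59 and a sum of 569.9 against 245 CPM. The list gave 0 UMIs of Rag1 and Rag2, the recombinase genes, of Dntt, and of Igll1, a surrogate light chain gene. Vpreb3, a gene of late precursors that transitional and mature B cells also express, was at 267 CPM against 1.08 CPM, and Cd24a, a surface glycoprotein high on transitional cells, at 274 against 45.7 CPM. Cd93, a surface marker of transitional B cells, was at 2.53 against 32.4 CPM, and Il7r, the interleukin 7 receptor chain, at 25.3 against 163 CPM.

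Long-term B cells carried several class II antigen-presenting genes below, and some regulators of peptide loading above, the level of the other immune cells. Of 12 listed genes 5 were called higher (H2-DMb2, H2-Oa, H2-Ob, Cd40 and Icosl) and 1 lower (Cd86), with a median log2 of 1.04. The list of 12 genes summed to 13510.5, 12903 and 23103 CPM in T22, T127 and long-term B cells against 24549, 16054 and 36200 CPM in the other immune cells. In marker-positive cells the sum was 15891 CPM in T22 and 17481 CPM (16588 to 18410) in T127, so in T127 it stood above the other immune cells once the cells without B cell genes were left out. Long-term Cd74, the invariant chain, was at 9274 against 12652 CPM, and H2-Ab1, a class II beta chain, at 4453 against 10854 CPM. By contrast H2-Oa, a chain of H2-O, which restrains class II peptide loading, was at 408 against 26.4 CPM, a ratio of 15.5 (13.8 to 17.3). H2-DMb2 was at 546 against 130.5 CPM, and Cd40, the receptor for T cell help, at 117 against 24.1 CPM. Cd86, a costimulatory ligand, was called lower at 26.6 against 143 CPM.

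Among cytokines, Ltb and Lta, the lymphotoxin genes, were called higher in long-term B cells and Tnf and Il6 lower. Ltb was at 1475 against 112 CPM, with 1508 CPM in regulatory T cells, and its marker-positive levels were 622 and 512 CPM in T22 and T127. Lta was at 57.0 against 4.35 CPM and had 0 UMIs in the short-term B cells. Il10, the cytokine of regulatory B cells, gave 8 UMIs in all B cells. Of 9 survival genes, Tnfrsf13c and Tnfrsf13b, receptors for BAFF and APRIL, were called higher in long-term B cells, and Bcl2l1 and Bcl2a1b lower. Tnfrsf13c was at 338 CPM, a ratio of 279 (230.5 to 339) to the other immune cells.

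Of the Fc receptor list, Fcer2a, Fcmr and Fcrla were called higher and Fcgr2b, the inhibitory IgG receptor that macrophages express strongly, was lower at 64.6 against 438 CPM. Of 10 activation and immediate early genes only Myc was called higher in the long-term experiment, at 117 against 27.2 CPM. Fos and Junb, immediate early factors, were at 624 against 1599 and 1569 against 1619 CPM. The summed list was above the other immune cells in all T127 B cells and below them in marker-positive ones (8073 and 5221 against 6460 CPM). In T22 it was above them in both (4368 and 4260 against 3685 CPM). Of 9 homing receptors Cxcr5, Ccr7 and S1pr1 were called higher and Cxcr3 lower, with a median log2 of 1.41. The list summed to 1598 CPM in long-term B cells, 1109 CPM in central memory CD4 T cells and 453 CPM over all other immune cells. Cxcr4, the receptor for CXCL12, was at 895 and 1452 CPM in marker-positive T22 and T127 cells and at 133 CPM in long-term B cells, whose other immune cells held 49.6 CPM. Of 9 innate sensing and interferon genes none was called higher in the long-term experiment and Tlr7, Isg15 and Bst2 were called lower.

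Markers of other cell types were mostly low. All 10 monocyte and macrophage genes were called lower in long-term B cells, with a median log2 of -5.44, and their sum was 789 CPM against 35859 CPM. In T22 and T127 B cells it was 1083 and 464 CPM against 18162 and 25747 CPM, and in marker-positive cells it was 263 and 219.6 CPM. Of the lists of 5 NK cell and 6 pDC genes 4 each were called lower, as were 2 of 7 T cell and 2 of 5 conventional dendritic cell genes. None of 6 malignant cell genes was called in the long-term experiment, and Pecam1 was called higher among 4 endothelial genes. The short-term cells without B cell genes changed this. Over all B cells the keratin genes Krt8 and Krt18 were called higher in both short-term experiments and Cldn3 in T22, and the malignant cell list summed to 764 against 157 CPM in T22 and 3057 against 429 CPM in T127. In marker-positive cells no gene of the list was called higher and the sums were 117 and 85.4 CPM. Flt3 and Fscn1 of the dendritic cell list were called higher over all T22 B cells and had 0 UMIs in the marker-positive ones. The long-term erythroid list ran the other way, at 12535 against 3506 CPM, with 7943 CPM in central memory CD4 T cells, the highest other immune cluster. Of 6 fibroblast genes in the long-term experiment the collagen genes Col1a1 and Col1a2 were called higher, at 41.8 against 6.76 and 69.7 against 11.1 CPM. Whether such transcripts were made in the B cells was not tested.

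B cells of T22 and T127 were compared directly in the short-term experiments, with a 2-fold difference as the call. Of 1000 genes measured in all B cells, 97 (9.7%) were higher in T22 and 68 (6.8%) in T127, and without T22 pool 2 these were 57 and 44. The leading genes were mostly those of the deep cells without B cell genes. For the 10 leading T22 genes (Wfdc18, Ccl5, Gzma, Fabp5, Aldh1a2, Fscn1, 2610528A11Rik, Tbc1d4, Marcks and Runx3) 85 to 100% of the T22 UMIs lay in such cells. For 9 of the 10 leading T127 genes, among them Fgb, Ptn, Spp1, Lcn2, Cldn4 and Krt19, 89.0 to 100% of the T127 UMIs lay in such cells. For the remaining gene, Hspa1a, 48 of 52 UMIs lay in 1 cell. In marker-positive cells 492 genes were measured, of which 21 (4.27%) were higher in T22 and 14 (2.85%) in T127, and 6 (1.22%) and 1 (0.203%) had an interval wholly past 2-fold.

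In the marker-positive cells ribosomal protein genes were frequent on the T22 side, with 11 of the 21 genes against 77 of the 492 measured and 0 of the 14 T127 genes. Rps28 was at 1770 CPM in T22 and 537 CPM in T127, a ratio of 3.30 (2.36 to 4.69). The other immune cells showed a ratio of 5.00 for the same gene. Summed over all ribosomal protein genes the levels lay closer, at 279096 CPM in T22 and 245456 CPM in T127 marker-positive cells, beside 228721 and 133052 CPM in the other immune cells. Zbtb20, a transcription factor of mature B cells and plasma cells, was at 418 against 97.6 CPM, a ratio of 4.29 (1.99 to 10.6), beside 1.25 in the other immune cells.

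On the T127 side Ifi27l2a, an interferon-induced gene, was at 214 CPM in T22 and 976 CPM in T127, a T22 to T127 ratio of 0.219 (0.130 to 0.355) beside 0.432 in the other immune cells. Klf2 had a ratio of 0.482 (0.382 to 0.607) beside 0.630. Cotl1, an actin-binding protein gene, had 0.332 (0.169 to 0.622) beside 1.06. Of the naive and follicular genes 7 were measured here and Klf2 alone was called, with a median log2 of -0.54 for the list and -0.11 for all measured genes. Each side is 1 experiment of its own, so tumor line and capture cannot be told apart.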

How the data were processed

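The deposited tables hold raw UMI counts of 32285 genes per cell for 16 libraries. The authors made these counts with Cell Ranger 6.0.0 on GRCm38 per the submitters' processing notes, with intronic reads included. Their methods state that cells with fewer than 1000 genes or over 20% mitochondrial reads and Scrublet doublets were removed and that cells were grouped by Leiden clustering, and their reporting summary gives a minimum of 400 genes. No B cell had fewer than 506, and 5, 16 and 219 B cells of the T22, T127 and long-term experiments had fewer than 1000. The authors' normalized table of fewer genes was not used.

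Counts were summed over cells and scaled to CPM. Genes with at least 50 UMIs in both groups together were compared on CPM with a pseudocount of 1, at 4-fold against the other immune cells and 2-fold between T22 and T127. Poisson, Clopper-Pearson and conditional binomial 95% intervals cover counting error only. Shares were also computed after thinning to 1500 UMIs per cell. A count of 0 allows 3 counts. The members and gene lists were chosen with earlier results of these data known, and a few listed genes are not reported here and entered no list or gene set. Named genes were Cd79a, Cd79b and Ms4a1, list members with at least 20 UMIs in B cells (or their count), the 20 leading genes by ratio to the highest other cluster with at least 100 UMIs, the 10 leading genes per direction between T22 and T127 by the interval bound nearer to 1, and the 10 most abundant variable genes. Genes and cell sets outside this rule are said to be chosen after their values were seen. No doublet caller was run. Leaving out the deepest 5% of cells in each pool, each pool, cells under 1000 genes and cells with fewer than 2 of the 3 B cell genes, with other filters, pseudocounts and denominators, were the alternatives. The calculations were tested on simulated data and were run with scipy 1.17.1 and numpy 2.4.6 under Python 3.11.15, tables were handled with pandas 2.3.3 and plots drawn with matplotlib 3.10.9.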

Additional observations from a re-analysis of the deposited data

Results flagged for a closer look

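Of 19 groups of pool values examined for a pool far from the others, 4 had such a pool, where chance gives about 1 in 20 separate groups, and 3 of the 4 share a pool and largely 1 cell. The mean log2 level of the B cell markers against the other immune cells was 6.28 in T127 pool 2 and 8.16 to 8.44 in the other T127 pools. That pool holds the cell of 32518 UMIs without B cell genes, and 67.8% of its B cell UMIs lay in that cell.

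The other 3 concern long-term pool 6, which holds the cell of most Ighg1 UMIs. Its IgM and IgD share of heavy chain constant UMIs was 11.1%, against 87.5 to 100% in the other 7 pools. The summed plasma cell genes stood there at 6156 CPM, against 1055 to 2265 CPM. The kappa share of light chain constant UMIs was 0.753% there and 0 in the other 7 pools, and rests on 4 Igkc UMIs, 3 of them in that cell. With the other 7 pools at 0, any Igkc UMI in pool 6 would have flagged it. The chance rate above therefore does not apply to the kappa share.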

How the results depend on the processing

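No paired analysis was possible because the values come from no test and the pool numbers tie no animals across experiments. Of the recomputed values 232 stayed within their spread and 37 moved.

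Of lymphocytes in place of immune cells, B cells were 0.802% in T22, 7.34% in T127 and 14.4% in the long-term experiment. The T127 share was 0.948% among cells with at least 1000 genes and 0.525% of all cells, and the long-term share fell to 0.587% among cells with at least 1000 genes. The T22 marker level was 8.24 (log2) in marker-positive cells in place of 7.19, a rise that follows from choosing those cells by the same genes. The long-term IgM and IgD share was 92.1% without the cell of most Ighg1 UMIs and ranged from 30.8 to 91.7% when each pool was left out, the highest without pool 6, and was 18.3% among cells with at least 1000 genes. Cells with at least 3 plasma cell genes were 44.7% in T22, 23.8% in T127 and 22.01% in the long-term experiment. After thinning they were 5.41% in T22, 18.4% in T127 and 9.93% in the long-term experiment, with at least 4 genes they were 15.8, 7.14 and 7.44%, and among long-term cells with at least 1000 genes 45.6%. The long-term naive and follicular sum was 2882 CPM in cells with at least 1000 genes.

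Counts of genes 4-fold above the other immune cells depended on the filter. In T22 they were 444, with 708 at a minimum of 10 UMIs, 243 at 200, 114 at a pseudocount of 10 CPM and 148 by the interval bound. In T127 they were 485, with 977, 199, 174 and 142 in the same order. In the long-term experiment they were 372, with 135 at the pseudocount of 10 and 246 by the bound. Between T22 and T127, the 97 genes higher in T22 became 21 in marker-positive cells, 11 after thinning, 743 at 10 UMIs, 17 at 200 and 34 by the bound. The 68 higher in T127 became 14, 7, 537, 11 and 28. Leaving out each pool gave 57 to 107 and 44 to 89, both lowest without T22 pool 2. Leaving out the cell of most Ighg1 UMIs, the marker-positive cells and the interval bound were chosen after seeing the data.

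The limits are the small numbers (38, 42 and 309 cells), their shallow depth, cells that the tables used here do not tie to tumors or treatment, and the near absence of Igkc counts. A level under 29.2 CPM in T22 or 36.6 CPM in T127 marker-positive cells is fewer than 3 UMIs.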

Other observations

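Cells with at least 100 UMIs of Ighg1 or Jchain were also found outside the B cell cluster, all of them in the long-term experiment. A cell that the annotation places among CD16 monocytes of pool 8, with 6427 UMIs, held 962 Ighg1, 254 Jchain and 747 Slpi UMIs, and immunoglobulin made up 17.2% of its UMIs. A further cell of that cluster and pool, with 4074 UMIs, held 200 Ighg1 and 10 Jchain UMIs beside 28 UMIs of the macrophage gene C1qa. A cell named pDC in pool 4, with 11469 UMIs, held 346 Ighg1, 342 Jchain, 279 Mzb1 and 1132 Slpi UMIs and 0 of Siglech, a pDC marker. A cell named NK in pool 5, with 19658 UMIs, held 1909 Ighg1, 761 Jchain and 550 Iglv1 UMIs beside 21 of Nkg7, a cytotoxic granule gene. A cell named malignant in pool 3, with 18201 UMIs, held 386 Jchain and 151 Mzb1 UMIs, 0 of Ighg1 and 70 of Acta2, a smooth muscle actin gene. These genes were chosen after their values were seen, and the cells entered no value of the B cells. All but the cell named malignant are among the other immune cells, whose Jchain level was 10.03 CPM with and 1.03 CPM without them and whose Mzb1 level was 7.47 and 4.66 CPM.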
